A study of Mus musculus with 12 samples.

Results

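The array signals of 7 genes of the Notch pathway were described in cultured mouse blood cells that carry the leukaemia fusion AML1-ETO, without and with the gene Tet2: the receptor genes Notch1, Notch2, Notch3 and Notch4, the ligand gene Jag1, Rbpj for the DNA-binding mediator of the pathway, and its target gene Hes1. Each gene was found by its symbol in the probe annotation of the value table, and where a gene had 2 rows (Rbpj) the row with the higher mean over the 12 arrays was used. All 7 genes passed the filter on low values, in a table of 41345 rows that gave 16860 genes to test. The row of a gene was chosen by its mean log2 value over all arrays, and the genes were selected on earlier results of these arrays, the higher Notch3 of Tet2-/- cells at passage 10 among them, so their p-values come from the test across all genes and are no independent support for the choice.

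All cells came from Kit-enriched bone marrow of mice with floxed Tet2 alleles and CreER, a Cre recombinase that 4-hydroxytamoxifen (4-OHT) switches on. All carried a retrovirus for AML1-ETO, which occurs in human acute myeloid leukaemia, with GFP, and had been replated 3 times in methylcellulose before growth in suspension with SCF, IL-3 and IL-6. Tet2-/- cells had received 200 nM 4-OHT for 2 passages (4 days) and Tet2fl/fl cells ethanol, so that 4-OHT, Cre activity and the absence of Tet2 cannot be told apart. Sorting kept GFP+ cells with CD16/32 and without CD11b and Gr1, at passage 10 and passage 2, which gave 4 groups of 3 arrays each: Tet2-/- at passage 10, Tet2fl/fl at passage 10, Tet2-/- at passage 2 and Tet2fl/fl at passage 2. The groups hold cultured cells with the fusion protein only, and the labels leave unsaid whether replicates came from separate cultures. P-values therefore reflect only how far these samples spread, which may be technical.

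The array medians lay between 5.57 and 5.68 on the log2 scale, and the correlation over all rows between arrays of the same group was 0.984 to 0.991. The mean of Ctsg, a granule protease gene of immature myeloid cells, lay between 13.06 and 13.21 in the 4 groups. It was the highest of 6 immature myeloid markers, of which 5 were lower at passage 10 than at passage 2 in each genotype. The median passage difference of the 6 was -0.35 in Tet2-/- and -0.39 in Tet2fl/fl cells. Itgam, the gene of CD11b, was still measured, at group means of 8.01 to 8.20, although the sort removed cells with that protein on the surface. The array value of Tet2 differed between Tet2-/- and Tet2fl/fl cells by -0.05 at passage 10 and by -0.03 at passage 2, with adjusted p-values of 0.921 and 0.952. It is 1 value for the whole gene and does not check the deletion.

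Notch receptors are surface proteins that a ligand on a neighbouring cell, such as Jagged1 (Jag1), pulls open for cleavage by ADAM proteases and then by gamma-secretase. The freed intracellular part enters the nucleus, binds RBPJ, which otherwise sits on DNA with corepressors, and turns on genes such as Hes1, a transcriptional repressor. In blood cells the pathway is best known for committing progenitors to the T cell lineage, and NOTCH1 is often mutated in T cell leukaemia, while Notch3 is well known from vascular smooth muscle. Tet2, an enzyme that oxidises methylated cytosine, mostly at CG pairs, is the gene deleted here.

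Promoter windows from RefSeq (GRCm38.p6, 250 bases before to 50 after the start of transcription) were found for 6 of the 7 genes, all but Hes1. The windows of Notch3, the receptor gene that differed between the groups, and Notch4, the member with the fewest CG pairs, are printed in the direction of transcription with CG pairs in capitals.
Notch3, chr17:32166841-32167140, minus strand: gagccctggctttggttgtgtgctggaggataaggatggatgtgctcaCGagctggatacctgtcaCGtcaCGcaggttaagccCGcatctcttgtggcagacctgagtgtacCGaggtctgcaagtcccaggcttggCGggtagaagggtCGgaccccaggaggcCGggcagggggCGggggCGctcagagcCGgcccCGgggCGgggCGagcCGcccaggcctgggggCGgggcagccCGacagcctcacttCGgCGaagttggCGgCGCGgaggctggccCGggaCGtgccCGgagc
Notch4, chr17:34564045-34564344, plus strand: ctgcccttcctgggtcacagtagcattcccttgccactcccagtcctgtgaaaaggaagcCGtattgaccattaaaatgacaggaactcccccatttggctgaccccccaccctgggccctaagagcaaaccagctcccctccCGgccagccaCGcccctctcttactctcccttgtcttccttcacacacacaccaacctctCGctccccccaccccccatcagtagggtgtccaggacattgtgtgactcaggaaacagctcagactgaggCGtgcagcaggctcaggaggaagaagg
The Notch3 window held 25 CG pairs, and 81.6% of the 32851 windows of this length in the table held fewer. The Notch4 window held 5, with fewer in 38.0% of windows. Notch1 had 23, Jag1 22, Notch2 41 and the overlapping Rbpj windows 26 and 28, against a median of 7 over all windows. TGGGAA, the core letters bound by RBPJ, searched on both strands, occurred in the Rbpj windows and in no other member window, and in 25.6% of all windows. TGTGGT, the core letters bound by RUNX proteins such as AML1, occurred in none of the member windows and in 16.8% of all. Methylation was not measured on these arrays.

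Notch3 was higher in Tet2-/- cells at passage 10 and was the only member to pass the test in any comparison with or without the replicate number in the fit. Its log2 values were 8.39, 8.48 and 8.50 in Tet2-/- cells at passage 10, against 7.72, 7.66 and 7.61 in Tet2fl/fl cells at passage 10. At passage 2 they were 7.83, 7.95 and 7.80 in Tet2-/- cells, against 7.32, 7.34 and 7.25 in Tet2fl/fl cells. No array of any group overlapped with another group: Tet2fl/fl cells at passage 2 were lowest, then Tet2fl/fl cells at passage 10, Tet2-/- cells at passage 2 and Tet2-/- cells at passage 10. The group means were, in the same order from low to high, 7.30 ± 0.0459, 7.66 ± 0.0548, 7.86 ± 0.0779 and 8.46 ± 0.0595 (SD, n = 3 each). The gaps between neighbouring group means were 0.36, 0.20 and 0.60, larger than the pooled standard deviations of 0.0506, 0.0673 and 0.0693. Of the 16860 genes, 13 (0.0771%) had all 4 groups apart in any order and 4 (0.0237%) in the order of Notch3.

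**Figure D1:**
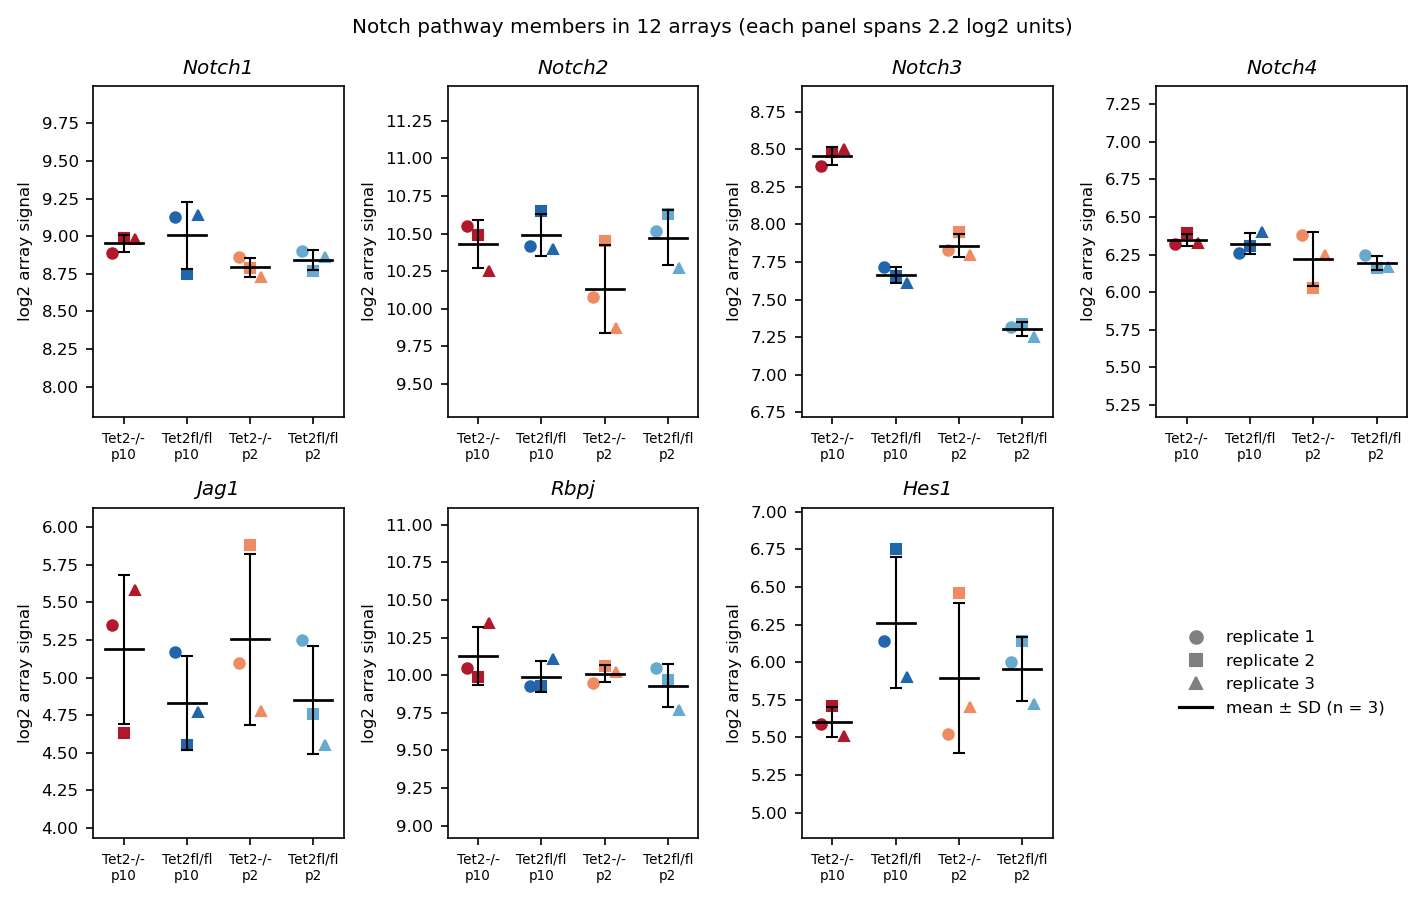
Log2 array values of the 7 members (1 panel per gene, each with its own vertical axis) in the 4 groups, with 1 point per array and bars for the mean and standard deviation of 3 arrays. The 3 Tet2-/- arrays at passage 10 lie between 8.39 and 8.50 for Notch3, above all other arrays, and the groups overlap in most other panels.

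The first question was how the Notch genes differ with the loss of Tet2 late in culture. At passage 10, Notch3 was higher in Tet2-/- than in Tet2fl/fl cells by 0.80 ± 0.07 on the log2 scale (± gives the standard error of the fit for differences), with a 95% interval of 0.64 to 0.96. This is a fold of 1.74, with a limma adjusted p of 0.00188. Between arrays of the same replicate number the difference was 0.67, 0.82 and 0.90. It was called with each of the 12 arrays left out in turn, with adjusted p between 0.00255 and 0.0215, and missed the threshold when only those 6 arrays were fitted (adjusted p = 0.0589). In this comparison 1 of the 7 members was called, where 0.225% of all genes were (1.31% with the block), and 2 of 7 (Notch3 and Hes1) had groups that did not overlap, where 16.4% of all genes did.

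Early after deletion the same direction was measured for Notch3. At passage 2 its difference between Tet2-/- and Tet2fl/fl cells was 0.55 ± 0.07 (0.40 to 0.71, a fold of 1.47), with an adjusted p of 0.0555, and same-number arrays differed by 0.51, 0.61 and 0.55. With the replicate number as a block, which the pairing of the arrays warrants, the adjusted p was 0.0302 and Notch3 was called. Thus 0 of 7 members passed without the block, where 0.00593% of all genes did, and 1 of 7 with it, where 0.409% did. Groups were apart for Notch3 alone among the members, against 15.3% of all genes. It was also called when replicate 2 of Tet2fl/fl cells at passage 10 was left out (adjusted p = 0.0434).

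The genotype difference of Notch3 was larger at passage 10 than at passage 2 by 0.24 ± 0.10 (0.02 to 0.47), but this interaction did not pass (adjusted p = 0.999, with the block 0.961). The interaction called 0 of 7 members and 0% of all genes in limma (0.00593% with the block), with 3.22% of genes at an unadjusted p under 0.05. Averaged over both passages, Notch3 was higher in Tet2-/- cells by 0.68 ± 0.05 (a fold of 1.6, adjusted p = 0.000275). Its 6 Tet2-/- arrays all lay above its 6 Tet2fl/fl arrays, which was so in either direction for 1.79% of genes. By unadjusted p it was second among the 16860 genes, and it was the 1 member called, where 1.72% of genes were (5.41% with the block).

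Notch3 also rose with passage in Tet2-/- cells. Its level was higher at passage 10 than at passage 2 by 0.60 ± 0.07 (0.44 to 0.76, a fold of 1.51, adjusted p = 0.0224), and it had the smallest unadjusted p of the 16860 genes in that comparison. Here 1 of 7 members was called, where 2.98% of genes were (7.94% with the block), and 2 of 7 (Notch3 and Notch1) had groups apart, where 28.3% did. The call was lost without replicate 1 or replicate 3 of Tet2-/- cells at passage 2 (adjusted p = 0.0746 and 0.0835), without replicate 1, 2 or 3 of Tet2-/- cells at passage 10 (0.0590, 0.0762 and 0.0619), and when only those 6 arrays were fitted (0.0534). The differences then lay between 0.57 and 0.63. In Tet2fl/fl cells the passage difference of Notch3 was 0.36 ± 0.07 (0.20 to 0.51, a fold of 1.28), with an adjusted p of 0.401 and, with the block, 0.0949. No gene of all tested passed in Tet2fl/fl cells without the block (0%, with 10.2% at an unadjusted p under 0.05) and 0.0415% passed with it, none a member. Notch3 and Notch4 had groups apart there, 2 of 7, against 14.5% of all genes. The passage and genotype comparisons share arrays, so their values for Notch3 are not separate lines of evidence.

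**Figure D2:**
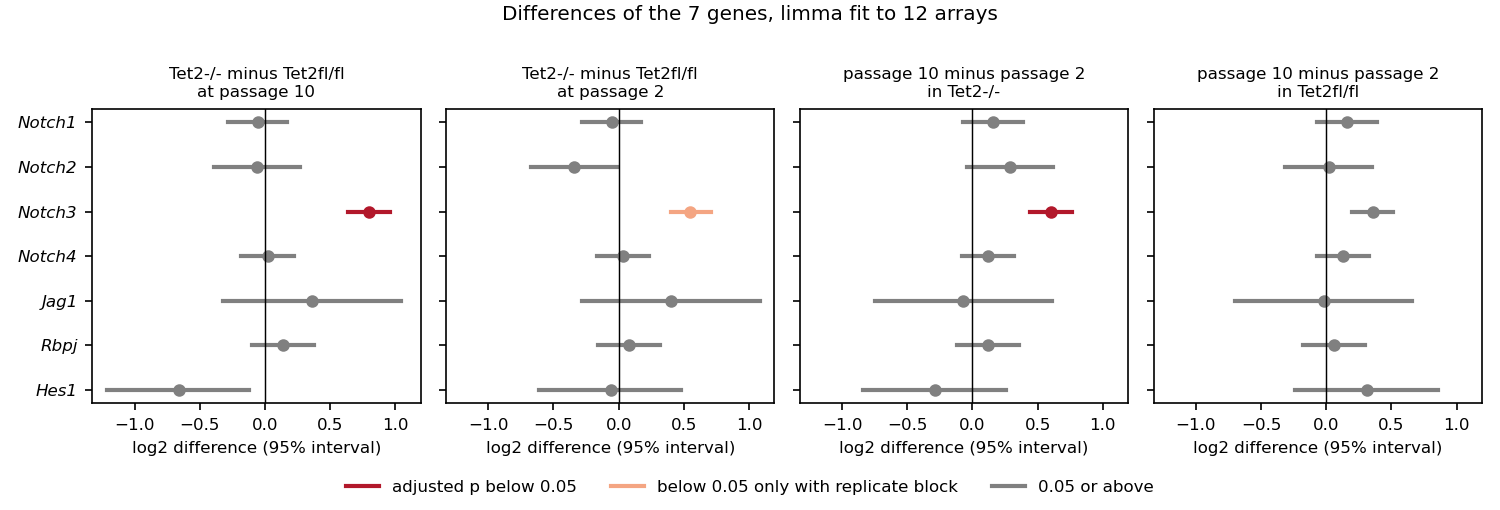
Differences on the log2 scale (horizontal axis) with 95% intervals for the 7 members in 4 comparisons, Tet2-/- minus Tet2fl/fl at passage 10 and at passage 2, and passage 10 minus passage 2 in Tet2-/- and in Tet2fl/fl cells, from the limma fit to 12 arrays. Notch3 lies at 0.80, 0.55, 0.60 and 0.36, with all 4 intervals above 0 (red, called; light red, called only with the replicate block; grey, not called).

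Of the other receptor genes none was called in any comparison, with or without the block. Passage differences of all 4 receptor genes were above 0 in both genotypes. This was so for 57.6% of all genes in Tet2-/- cells and for 57.9% in Tet2fl/fl cells. The smallest, that of Notch2 in Tet2fl/fl cells, was 0.02 ± 0.15 and changed sign in 3 of the other settings. Notch1, the receptor that drives early T cell commitment, had log2 values of 8.89, 8.99 and 8.98 in Tet2-/- cells at passage 10, against 9.13, 8.75 and 9.14 in Tet2fl/fl cells at passage 10. At passage 2 it had 8.86, 8.79 and 8.73 in Tet2-/- cells, against 8.90, 8.77 and 8.86 in Tet2fl/fl cells. Genotypes overlapped at both passages, and the differences were -0.05 ± 0.10 at passage 10 (-0.28 to 0.17) and -0.05 ± 0.10 at passage 2 (-0.28 to 0.17), with adjusted p-values of 0.925 and 0.909. The interval at passage 10 lies below that of Notch3. In Tet2-/- cells all 3 arrays at passage 10 were above all 3 at passage 2, by 0.16 on average (adjusted p = 0.394), and in Tet2fl/fl cells the difference was also 0.16 (adjusted p = 0.599), with overlap.

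Notch2, a receptor with known roles in marginal zone B cells and dendritic cells, had log2 values of 10.55, 10.49 and 10.25 in Tet2-/- cells at passage 10, against 10.42, 10.65 and 10.40 in Tet2fl/fl cells at passage 10. Its values at passage 2 were 10.08, 10.45 and 9.87 in Tet2-/- cells, against 10.52, 10.63 and 10.27 in Tet2fl/fl cells. All groups overlapped, and in all 4 groups replicate 3 was the lowest array. At passage 2 each Tet2-/- array lay below the Tet2fl/fl array of its number, with differences of -0.44, -0.18 and -0.39, and the fitted difference was -0.34 ± 0.15 (-0.67 to -0.01, adjusted p = 0.491). With the block the standard error was 0.09 and the adjusted p 0.167. Leaving out 1 array gave -0.50 to -0.21, the smallest without replicate 3 of Tet2-/- cells at passage 2. At passage 10 the difference was -0.06 ± 0.15 (-0.39 to 0.27, adjusted p = 0.942). With passage Notch2 differed by 0.29 ± 0.15 in Tet2-/- cells (-0.04 to 0.62, adjusted p = 0.288, with the block 0.0870), with same-number differences of 0.47, 0.04 and 0.37, and by 0.02 ± 0.15 in Tet2fl/fl cells. Whether the passage difference of Notch2 differs from that of Notch3 was not tested.

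Notch4, best known from endothelial cells, had log2 values of 6.32, 6.39 and 6.33 in Tet2-/- cells at passage 10, against 6.26, 6.31 and 6.40 in Tet2fl/fl cells at passage 10. It had 6.38, 6.03 and 6.25 in Tet2-/- cells at passage 2, against 6.25, 6.16 and 6.17 in Tet2fl/fl cells. Genotypes overlapped at both passages, with differences of 0.02 ± 0.09 at passage 10 (-0.18 to 0.22) and 0.03 ± 0.09 at passage 2 (-0.17 to 0.23), with adjusted p-values of 0.969 and 0.939. In Tet2fl/fl cells the 3 arrays at passage 10 lay above the 3 at passage 2, by 0.13 on average (adjusted p = 0.627).

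Jag1, the ligand gene, was dim, with a mean over the 12 arrays of 5.03 near the filter at 4.70. Its log2 values were 5.35, 4.63 and 5.58 in Tet2-/- cells at passage 10, against 5.17, 4.55 and 4.77 in Tet2fl/fl cells at passage 10. At passage 2 they were 5.10, 5.88 and 4.78 in Tet2-/- cells, against 5.25, 4.76 and 4.55 in Tet2fl/fl cells. All groups overlapped, and the standard deviation within a group, 0.313 to 0.563, was larger than the 0.0459 to 0.0779 of Notch3. The differences of 0.36 ± 0.31 at passage 10 (-0.32 to 1.04) and 0.40 ± 0.31 at passage 2 (-0.28 to 1.08) had intervals that span 0, with adjusted p-values of 0.777 and 0.719.

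Rbpj, the mediator gene, had log2 values of 10.05, 9.99 and 10.35 in Tet2-/- cells at passage 10, against 9.93, 9.93 and 10.11 in Tet2fl/fl cells at passage 10. It had 9.95, 10.06 and 10.02 in Tet2-/- cells at passage 2, against 10.05, 9.97 and 9.77 in Tet2fl/fl cells. The groups overlapped, and the differences were 0.14 ± 0.11 at passage 10 (-0.10 to 0.38) and 0.08 ± 0.11 at passage 2 (-0.16 to 0.32), with adjusted p-values of 0.743 and 0.860. The row of Rbpj that was not used, with a mean of 5.80, differed by 0.19 at passage 10 and by -0.09 at passage 2, so the rows disagree in sign at passage 2, and neither was called.

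Hes1, the repressor gene that active Notch turns on, stood lower in Tet2-/- cells at passage 10 in array values, without passing the test across all genes. Its log2 values were 5.59, 5.71 and 5.51 in Tet2-/- cells at passage 10, against 6.14, 6.75 and 5.90 in Tet2fl/fl cells at passage 10. At passage 2 they were 5.52, 6.46 and 5.70 in Tet2-/- cells, against 6.0, 6.14 and 5.72 in Tet2fl/fl cells. The genotypes did not overlap at passage 10 and did at passage 2, and replicate 2 was the highest array in all 4 groups. The difference at passage 10 was -0.66 ± 0.25 (-1.21 to -0.12, adjusted p = 0.355), with same-number differences of -0.55, -1.05 and -0.39. With the replicate block the standard error was 0.15 and the adjusted p 0.0726. Leaving out 1 array moved the difference between -0.85 and -0.42, the smallest without replicate 2 of Tet2fl/fl cells at passage 10 (adjusted p = 0.680).

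At passage 2 the Hes1 difference was -0.06 ± 0.25 (-0.61 to 0.48, adjusted p = 0.959), with same-number differences of -0.48, 0.32 and -0.03. The change in genotype difference between the passages, -0.60 ± 0.35 (-1.37 to 0.17), did not pass (adjusted p = 0.999, with the block 0.956). Between passages Hes1 differed by -0.29 ± 0.25 in Tet2-/- cells and by 0.31 ± 0.25 in Tet2fl/fl cells (adjusted p = 0.536 and 0.669). Notch3 and Hes1 thus had differences of opposite sign at passage 10, 0.80 and -0.66, of which the test called that of Notch3. The Hes1 values lay close to the array medians.

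**Figure D3:**
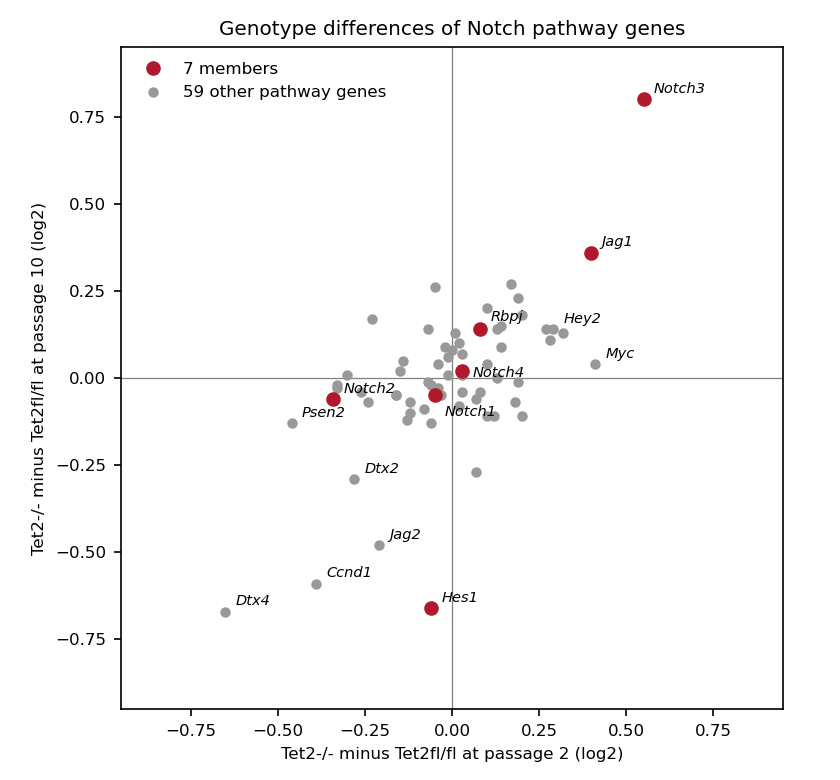
Log2 difference between Tet2-/- and Tet2fl/fl cells at passage 10 (vertical axis) against the same difference at passage 2 (horizontal axis), 1 point per gene, for the 7 members (red) and 59 other genes of the Notch pathway lists (grey). Notch3 lies alone at the upper right (0.80 and 0.55) and Dtx4 at the lower left (-0.67 and -0.65), while Hes1 lies low at passage 10 (-0.66) and near 0 at passage 2 (-0.06).

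The remaining pathway genes were set beside the members to see how many of them moved. Of 71 listed genes, from receptors to targets, 66 were tested, 59 of them other than the 7 members. The rest of the listed genes were not analysed here. Of the 59, 0 were called between the genotypes at passage 10 and 0 at passage 2 in limma without the block (6 and 12 at an unadjusted p under 0.05, which is 10.2% and 20.3%, against 10.6% and 9.95% of all genes), and their median differences were -0.01 and -0.01, against -0.01 and 0 over all genes. With the block 1 of 59 was lower at each passage, Dtx4, which is 1.69%. Of all genes, 0.7% were called lower with the block at passage 10 and 0.261% at passage 2.

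Dtx4, a Deltex family ubiquitin ligase gene that acts on receptor turnover, had log2 values of 10.43, 10.36 and 10.08 in Tet2-/- cells at passage 10, against 10.72, 11.17 and 10.98 in Tet2fl/fl cells at passage 10. At passage 2 it had 10.13, 10.32 and 9.95 in Tet2-/- cells, against 10.80, 10.94 and 10.62 in Tet2fl/fl cells. All 6 Tet2-/- arrays lay below all 6 Tet2fl/fl arrays. The differences were -0.67 ± 0.14 at passage 10 (adjusted p = 0.0940, 0.0248 with the block) and -0.65 ± 0.14 at passage 2 (0.162, with the block 0.0430). Averaged over the passages Dtx4 fell by 0.66 (adjusted p = 0.0123), the 1 call among the 59 genes (1.69%, against 1.72% of all genes). With the block, 3 of 59 were lower on average (5.08%, against 3.25% of all genes called lower). They were Dtx4, the related gene Dtx2 (-0.28, adjusted p = 0.0285) and Ccnd1, the gene of cyclin D1 and a listed target (-0.49, 0.0234).

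With passage in Tet2-/- cells, 1 of the 59 rose and 1 fell, 3.39% against 2.98% of all genes, with a median difference of 0.09 against 0.04. Psen2, a catalytic subunit gene of gamma-secretase, had 8.07, 7.74 and 8.09 at passage 10, against 7.45, 7.28 and 7.39 at passage 2, without overlap (0.59 ± 0.12, adjusted p = 0.0370). Kat2a, a histone acetyltransferase gene listed with the nuclear complex, had 8.65, 8.85 and 8.74 at passage 10, against 9.34, 9.10 and 9.40 at passage 2 (-0.53 ± 0.11, adjusted p = 0.0365). Both calls were lost without replicate 1 or 3 of Tet2-/- cells at passage 2, replicate 2 of Tet2fl/fl cells at passage 2 or any replicate of Tet2-/- cells at passage 10 (adjusted p of 0.0546 to 0.110 for Psen2 and 0.0530 to 0.121 for Kat2a), that of Psen2 also without replicate 2 of Tet2-/- cells at passage 2 (0.0677). With the block, Myc, a target gene that drives growth, was also lower at passage 10 (-0.60, adjusted p = 0.0337) and Numbl, a gene related to the Notch inhibitor Numb, higher (0.33, 0.0418), 4 of 59 in all (6.78%, against 7.94%). In Tet2fl/fl cells none of the 59 passed with or without the block, with 5 at an unadjusted p under 0.05.

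Within each list the gene nearest to passing between the genotypes showed no common direction. At passage 10, Jag2, the second Jagged ligand gene, differed by -0.48 ± 0.31 (adjusted p = 0.654), Mib1, a ubiquitin ligase gene for ligands, by -0.11 (0.724), and Rfng, a Fringe glycosyltransferase gene, by 0.13 (0.549). Adam17, a protease gene, differed by 0.14 (0.794), Snw1, a cofactor gene of the nuclear complex, by 0.23 (0.348), Spen, a corepressor gene, by 0.15 (0.534) and Ccnd1 by -0.59 (0.189). At passage 2, Mib2 differed by 0.19 (0.642), Pofut1, which adds fucose to receptors, by -0.30 (0.320), Psen2 by -0.46 (0.230), and Maml3, a coactivator gene of the Mastermind family, by 0.28 (0.339). Hey2, a repressor gene related to Hes1, differed by 0.29 (0.278). Kyat1, which was listed with the corepressors although it is known as a kynurenine aminotransferase gene, differed by 0.32 (0.391).

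Genes of other cell types were measured beside Notch3 because Notch receptors also mark them. In bulk RNA fewer cells of a type and less RNA per cell cannot be told apart. Of 8 pericyte and stromal markers, the cells in which Notch3 is best known, all 8 were above the filter and 0 were called between the genotypes. Summed log2 levels were 10.04 to 11.18 in Tet2-/- cells at passage 10, against 10.00 to 10.82 in Tet2fl/fl cells. Pdgfrb, the highest of the 8, had standard deviations of 1.79 and 1.35 in these groups, so its lack of a call says little. At passage 2, 2 of the 8 had an unadjusted limma p under 0.05, against 9.95% of all genes. Of 9 T cell markers 6 were tested and 0 were called, with summed levels of 7.85 to 7.91 in Tet2-/- cells at passage 10, against 7.91 to 7.96 in Tet2fl/fl cells, and Cd3g was below the filter.

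Summed levels of some other marker lists stood apart between the genotypes while none of their genes was called at passage 2 or at passage 10, in the fit with the block or in the one without it. For 6 endothelial markers the sum was 11.45 to 11.53 in Tet2-/- cells at passage 10, against 11.39 to 11.44 in Tet2fl/fl cells, and 11.35 to 11.46 in Tet2-/- cells at passage 2, against 11.28 to 11.34 in Tet2fl/fl cells. This sum is mostly Pecam1, which myeloid cells also express, while 4 of the 6 genes were below 0 in difference at passage 10 (median -0.15) and 5 of 6 at passage 2 (median -0.14). Averaged over the passages, the endothelial receptor gene Tie1 was lower in Tet2-/- cells with the block (-0.44, adjusted p = 0.0288).

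For 6 monocyte and macrophage markers, mostly Adgre1, the sum was 12.84 to 12.98 in Tet2-/- cells at passage 10, against 12.47 to 12.72 in Tet2fl/fl cells, with overlap at passage 2. Of the 6 genes 3 were above and 3 below 0 in difference at passage 10 (median 0.04). Averaged over the passages, Adgre1 was higher in Tet2-/- cells with the block (0.26, adjusted p = 0.0419). The megakaryocyte marker gene Itga2b was also higher there (0.35, 0.0416), where 2.16% of all genes were called higher. Of the 4 megakaryocyte markers tested, 2 were above and 2 below 0 in that average (median -0.01). Ly6g, part of the Gr1 epitope used in the sort, was 6.34 to 7.61 in Tet2-/- cells at passage 10, against 5.54 to 5.76 in Tet2fl/fl cells, and 5.06 to 6.32 in Tet2-/- cells at passage 2, against 4.77 to 6.80 in Tet2fl/fl cells, and was not called. Kit, the receptor gene of the SCF in the medium, was lower in Tet2-/- cells with the block, by -0.82 at passage 10 and -0.83 at passage 2 (adjusted p = 0.0246 and 0.0418). Of 8 mast cell and basophil markers 6 were below and 2 above 0 in difference at passage 10 (median -0.16). Their summed levels overlapped there, at 15.15 to 15.27 in Tet2-/- and 15.22 to 15.45 in Tet2fl/fl cells. Among these markers, Tpsab1 (-1.72, adjusted p = 0.0120) and Fcer1a (-2.48, 0.0340) were lower at passage 10 with the block. In that fit 0.7% of all genes were called lower at passage 10. Averaged over the passages, Kit (-0.82, adjusted p = 0.022) and Tpsab1 (-1.43, 0.0124) were also called lower in limma without the block, where 1.06% of all genes were.

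With passage in Tet2-/- cells, where Notch3 rose, single genes of other marker lists also differed with the block. The summed level of 4 megakaryocyte markers was 11.22 to 11.59 at passage 10, against 10.60 to 11.03 at passage 2, and 1 of the 4, the platelet chemokine gene Ppbp, was higher with the block (1.73, adjusted p = 0.0372). Of 6 late neutrophil markers 4 were below and 2 above 0 in difference (median -0.15). Their summed levels overlapped, at 12.36 to 12.86 at passage 10 and 12.50 to 12.63 at passage 2. Among them the granule gene Ngp was lower with the block (-2.03, adjusted p = 0.0293). Of 6 immature myeloid markers 5 were below and 1 above 0 (median -0.35), and the elastase gene Elane was lower with the block (-1.69, adjusted p = 0.0380). With the block 7.94% of all genes were called in this comparison, and 4.68% were called lower. In Tet2fl/fl cells Ppbp, Ngp and Elane differed with passage in the same directions, by 1.77, -1.58 and -1.38, without being called. The part of all these marker genes in the Notch3 results was not tested.

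The genes whose levels followed Notch3 most closely over the 12 arrays were Cilk1, a kinase gene of cilia (Pearson r = 0.980), Nol4l (0.978), Treml2, a receptor gene of myeloid and lymphoid cells (0.966), Slc44a2, a choline transporter gene (0.965), and Adnp2 (0.949). These correlations describe arrays that share groups and replicate numbers, among 15166 genes with known names, of which 28 reached 0.9. Cilk1, Slc44a2 and Treml2 are the 3 genes that share the order of Notch3 with all groups apart. All differed less than Notch3: at passage 10 the genotype difference was 0.39 for Cilk1 (adjusted p = 0.0503), 0.41 for Nol4l (0.0513), 0.51 for Treml2 (0.0199), 0.43 for Slc44a2 (0.0614) and 0.29 for Adnp2 (0.166). With the block the first 4 were called, at 0.0331, 0.0334, 0.0208 and 0.0409, where 1.31% of all genes were. The genes were picked for their correlation with Notch3 over these same arrays, so differences in the direction of Notch3 were largely built into the choice. Their p-values and calls are therefore no independent support for a genotype difference. Without the block, the call of Treml2 was lost when replicate 2 or 3 of either genotype at passage 10 was left out (0.110 and 0.0997 for Tet2-/-, 0.0910 and 0.0522 for Tet2fl/fl).

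**Figure D4:**
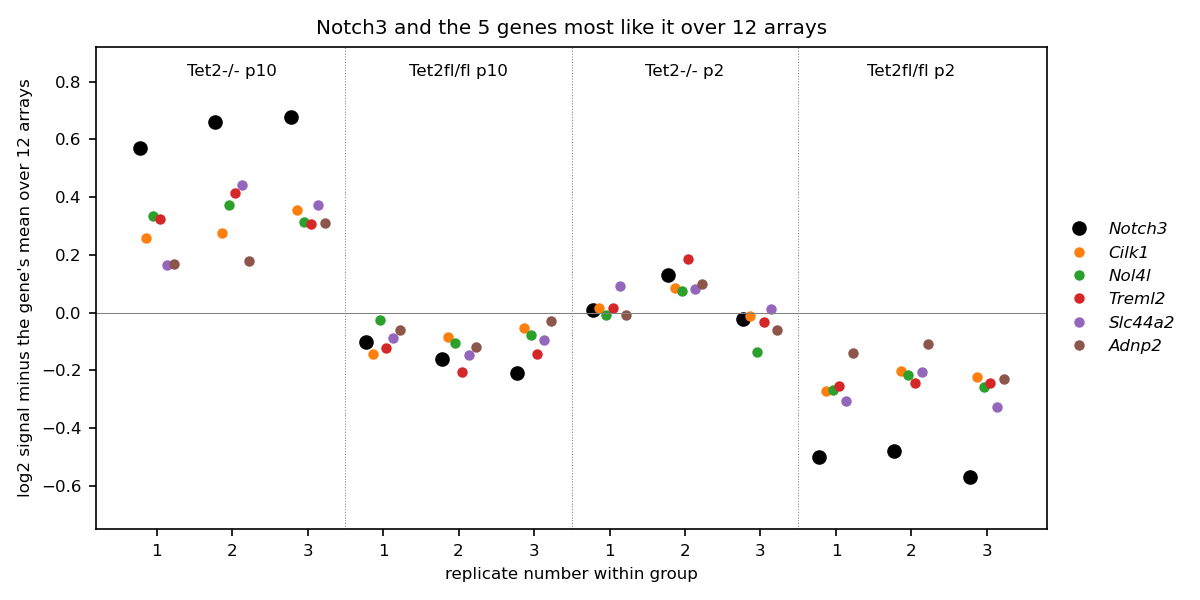
Log2 value minus the gene's mean over 12 arrays (vertical axis) for Notch3 (black) and the 5 genes with the highest Pearson correlation with it, array by array in the 4 groups. In all 6 genes the Tet2-/- arrays at passage 10 are highest, and Notch3 spans the widest range.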

How the data were processed

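RNA of 12 samples was measured with the GeneChip Mouse Gene ST 2.0 array. The values are log2 values that the authors made with RMA in Affymetrix Power Tools, per the submitters' processing notes, and were used as deposited. Tool versions and the array's genome build: not given in the sources used here. Of 41345 rows, 23521 had 1 symbol in the probe annotation, 1814 several and 16010 none. Rows with a mean at or above the 30th percentile, log2 4.70, were kept (28941), and of several rows of a gene the one with the highest mean was used, which left 16860 genes.

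The limma package (version 3.58.1, R 4.3.3) fitted 4 group means to the 12 arrays together, with 8 residual and 3.33 prior degrees of freedom. Tests were two-sided, with Benjamini-Hochberg adjustment over all genes within a comparison and a threshold of 0.05. The average of both genotype differences was a further comparison. The steps were tested on simulated data.

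Replicate numbers were checked for pairing on deviations from group means. The correlation was 0.201 to 0.517 over 18 same-number pairs of arrays and -0.369 to 0.0532 over 36 others, and 36 of 36 best matches had the same number. Values with the number as a block, at 6 residual and 3.93 prior degrees of freedom, are given where they change a call.

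The members, the pathway and marker lists and the average comparison were chosen with earlier results of these data known. Besides the members, the text names pathway genes that passed with or without the block, the gene of each list with the smallest p between genotypes, the 5 genes most correlated with Notch3 and 3 with Hes1, and marker genes that passed or had the highest mean; not every such marker is printed. Summed marker levels are log2 of the sum of linear values. Other settings tried were a changed scaling (quantile normalization, or medians set equal), another filter (none, or the 50th percentile), array weights, limma's robust and trend options, a replicate block (fixed, random), averaging the rows of a gene or keeping every row, fitting the compared arrays alone, and dropping each array in turn.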

Additional observations from a re-analysis of the deposited data

How the results depend on the processing

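The genotype difference of Notch3 at passage 10 was called under every alternative but the fit to only the arrays compared (0.80, adjusted p = 0.0589, 0 members called), and lay between 0.77 and 0.83 with an array left out. At passage 2 Notch3 was called, as 1 member, with a filter at the 50th percentile (0.55, adjusted p = 0.0392), with array weights (0.53, 0.0280), and with a replicate block, fixed (0.55, 0.0302) or random (0.55, 0.0264). Leaving out each array gave 0.51 to 0.58, adjusted p of 0.0434 to 0.283 and 0 to 1 members called. For passage in Tet2-/- cells, only the arrays compared gave 0.60, adjusted p = 0.0534 and 0 members, and leaving out each array gave 0.57 to 0.64 and 0 to 1 members. The averaged difference was called with each of the 12 arrays left out, at 0.65 to 0.69. Leaving out each array moved the passage difference in Tet2fl/fl cells within 0.33 to 0.38 and the interaction within 0.21 to 0.29. The fit to only the arrays compared has fewer arrays to estimate each gene's spread. The cause of the changes under this and the other settings was not tested. Counts of all genes called moved more: between the genotypes at passage 10, 38 genes passed, against 221 with the fixed block and 3 with only the arrays compared, at passage 2, 1 gene, against 69 and 28, and with passage in Tet2-/- cells 503, against 1339 and 0. With an array left out, the first count lay between 12 and 70 and the last fell to 0 without 4 of the arrays (Tet2-/- passage 2 replicates 1 and 3, passage 10 replicates 2 and 3) and to 2 without Tet2-/- passage 10 replicate 1, so the shares of all genes called move with them. Apart from calls given with the results, the block changed no other call of a member. Signal over background limits Jag1, which was not tested with the filter at the 50th percentile. No result that passed changed direction.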

Other observations

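Within groups, where the group means are taken out, the genes that deviated most like Notch3 over the 12 arrays were Elf4, a transcription factor gene (Pearson r = 0.919), Srebf2, a regulator gene of cholesterol synthesis (0.912), Hacd4 (0.905), Nhsl2 (0.903) and Rnf208 (0.902). These are not the genes that followed its level, and the genotype difference at passage 10 was 0.03 for Srebf2 and 0 for Rnf208, against 0.75 for Hacd4 (adjusted p = 0.135). For Hes1, whose level was followed most closely by Cd300e (0.881), Olfr156 (0.878) and Acvr1 (0.867), the closest in deviation were Lasp1 (0.972), Vmn1r43 (0.969) and Diaph1 (0.961), genes that include 2 regulators of the actin skeleton and a vomeronasal receptor. For deviations from group means 21 genes reached 0.9 with Hes1 and 5 with Notch3. The arrays share replicate numbers, along which Hes1 was highest in replicate 2 of all 4 groups, so these are descriptions of shared array variation.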
